A study of Mus musculus with 16 samples.

Results

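At E7.5 the mouse embryo gastrulates and its germ layers form. The comparison described here set *Stat3* null cells of chimeric embryos against wild-type (WT) host cells at this stage, by germ layer type. Cells were taken from the authors' table of cells by stage E7.5, by their quality filter, by the absence of a doublet call and by presence in the count matrix. Null cells were those sorted as tdTomato positive, and WT cells those sorted as tdTomato negative without a tdTomato UMI (unique molecular identifier, which marks a captured transcript). Cells that the authors labelled ExE ectoderm, ExE endoderm or Visceral endoderm were left out. This gave 4609 embryonic cells, of 5038 cells kept at E7.5 and 37841 kept in all 16 libraries of the series. Null A held 2168 of them, null B 360, WT A 568 and WT B 1513, where the letters are names only.

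The null donor cells were CD1 embryonic stem cells (ESCs) in which internal exons of *Stat3* are replaced by a neomycin resistance gene, and they carried a tdTomato reporter. They were injected into WT CD1 blastocysts, so null and WT cells developed side by side in chimeric embryos. ESCs of this kind colonise the epiblast and its derivatives, and the host supplies nearly all extra-embryonic ectoderm and endoderm. Several E7.5 embryos were pooled by size class before sorting, and the class and pool of each library are not given in the labels. In the study each pool gave a null and a WT library, so the libraries are matched by pool. Which libraries share a pool is not known, and no test here used the matching. Every p-value for E7.5 alone thus measures the spread between 2 null and 2 WT libraries of pooled embryos, differences between pools included. All null cells come from injected *Stat3* null ESCs and all WT cells from the host, with no WT donor cells. A null effect below is thus a difference of null donor from WT host cells. Loss of *Stat3* and other traits of the donor line cannot be told apart here. Whether the same donor line served all stages is not stated.

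STAT3 is a latent transcription factor. Cytokines of the LIF and IL-6 family bind receptors that share gp130, the product of *Il6st*, Janus kinases phosphorylate STAT3, and the dimer enters the nucleus and binds palindromes of the form TTCNNNGAA. In ESCs this pathway sustains naive pluripotency and switches on its own brakes, *Socs3* among them. After implantation the epiblast leaves the naive state, passes through the primitive streak and gives rise to ectoderm, mesoderm, definitive endoderm and the first blood.

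The feedback targets *Socs3* and *Cish* show what such sites look like in their promoters. RefSeq windows on GRCm38.p6 (250 bases before to 50 after the start of the gene, written 5′ to 3′ on the strand of the gene, with TTCNNNGAA in capitals) are given for *Socs3* (chr11:117969317-117969616, minus strand) and *Cish* (chr9:107296409-107296708, plus strand).
Socs3: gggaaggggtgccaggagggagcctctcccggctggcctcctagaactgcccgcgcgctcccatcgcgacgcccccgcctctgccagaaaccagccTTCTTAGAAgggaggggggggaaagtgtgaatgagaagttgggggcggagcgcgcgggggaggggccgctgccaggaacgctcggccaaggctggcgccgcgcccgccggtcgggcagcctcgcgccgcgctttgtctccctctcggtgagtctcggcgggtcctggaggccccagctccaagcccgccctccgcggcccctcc
Cish: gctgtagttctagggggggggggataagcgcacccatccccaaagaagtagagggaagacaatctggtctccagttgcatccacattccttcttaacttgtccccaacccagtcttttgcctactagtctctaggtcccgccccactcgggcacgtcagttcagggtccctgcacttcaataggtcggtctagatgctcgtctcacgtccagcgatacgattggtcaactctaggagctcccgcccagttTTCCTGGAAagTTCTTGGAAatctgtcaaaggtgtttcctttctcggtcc
The motif reads the same on both strands. It stands at 1 place in the *Socs3* window and at 2 in that of *Cish*. Only windows of these genes that hold the motif were eligible to be printed, so a match in each was fixed in advance. Of 32851 RefSeq promoter windows 8.30% hold it. A match is a string of letters and not a measured binding site.

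The 4 libraries held 90218400 (null A), 20682659 (null B), 21003948 (WT A) and 46113233 (WT B) UMIs in embryonic cells, with a median per cell between 29483 and 57791.5. A tdTomato UMI was found in 97.3% and 97.2% of null cells. Extra-embryonic types made up 0.184% of all cells of null A, 0 of 360 cells of null B (a count of 0 allows up to 0.833%), and 21.4% and 15.1% of those of WT A and B. *Xist*, the RNA that silences an X chromosome, reached 1.84 and 0.580 CPM (UMIs scaled to a library of 1000000) in null A and B and 273 and 108 in WT A and B, whereas Y-linked genes were read at 52.1 to 82.7 CPM in all 4 libraries. The median X-linked gene differed by -0.03 on the log2 scale between null and WT. Libraries of the same group were not copies of each other, as their counts differed far beyond sampling noise (chi-square per degree of freedom 19.6 for null and 23.5 for WT).

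Labels and markers went together in most of the 7 types that could be tested for expression. Blood progenitors had *Gata1* at 171 CPM and *Runx1* at 283 CPM (means of 4 libraries), Mesenchyme had *Hand1* at 706 CPM, Caudal epiblast had *Cdx1* at 351 CPM and Paraxial mesoderm had *Tcf15* at 205 CPM, each the highest of the 7 types. In Paraxial mesoderm *Meox1* ranked second and *Tbx6* the third, at 9.35 CPM. Intermediate mesoderm had none of its 4 markers at the highest rank. *Pax2*, its defining factor, stayed between 0 and 0.436 CPM, and *Osr1* and *Lhx1* ranked second among the 7 types. The label is used below as the authors gave it, for cells that its markers do not set apart.

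The first question was whether null cells entered all germ layers in the same proportions as the WT cells around them. The test did not use the matching of libraries by pool, and no embryonic type passed it at this stage. Of 24 types with at least 20 cells, 0 were called (quasi-likelihood test of edgeR, p adjusted after Benjamini-Hochberg under 0.05), 0 passed at an unadjusted p under 0.05, and DESeq2 called 0. Ectoderm was the most numerous type, at 17.9% and 10.0% of null and 16% and 16% of WT embryonic cells. Blood progenitors, the type from which the first red cells come, made up 7.10% and 5% of null and 7.04% and 4.43% of WT embryonic cells. The null and WT ranges overlapped in both types.

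The types of the youngest cells varied between libraries of the same genotype more than between genotypes. Nascent mesoderm, the cells that have just left the streak, made up 0.830% of null A, 8.61% of null B, 1.06% of WT A and 11.6% of WT B. Epiblast was at 0.830%, 6.94%, 1.58% and 8.26% in the same order. Primitive Streak cells were near or at 0 in null A (0.138%) and WT A (0 of 568 cells, for which the limit is 0.528%) and made up 5.83% and 5.09% of null B and WT B. Null B and WT B thus held the larger shares of early types, and null A and WT A the smaller ones. The largest log2 difference by genotype was in Cardiopharyngeal progenitors SHF, the precursors of the second heart field, with 3.04% and 3.06% of null cells against 0.880% and 1.26% of WT cells. Here the groups did not overlap, but the log2 difference of 1.27 (SE 0.63) did not pass the test (edgeR, unadjusted p = 0.115, adjusted p = 0.971).

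**Figure D1:**
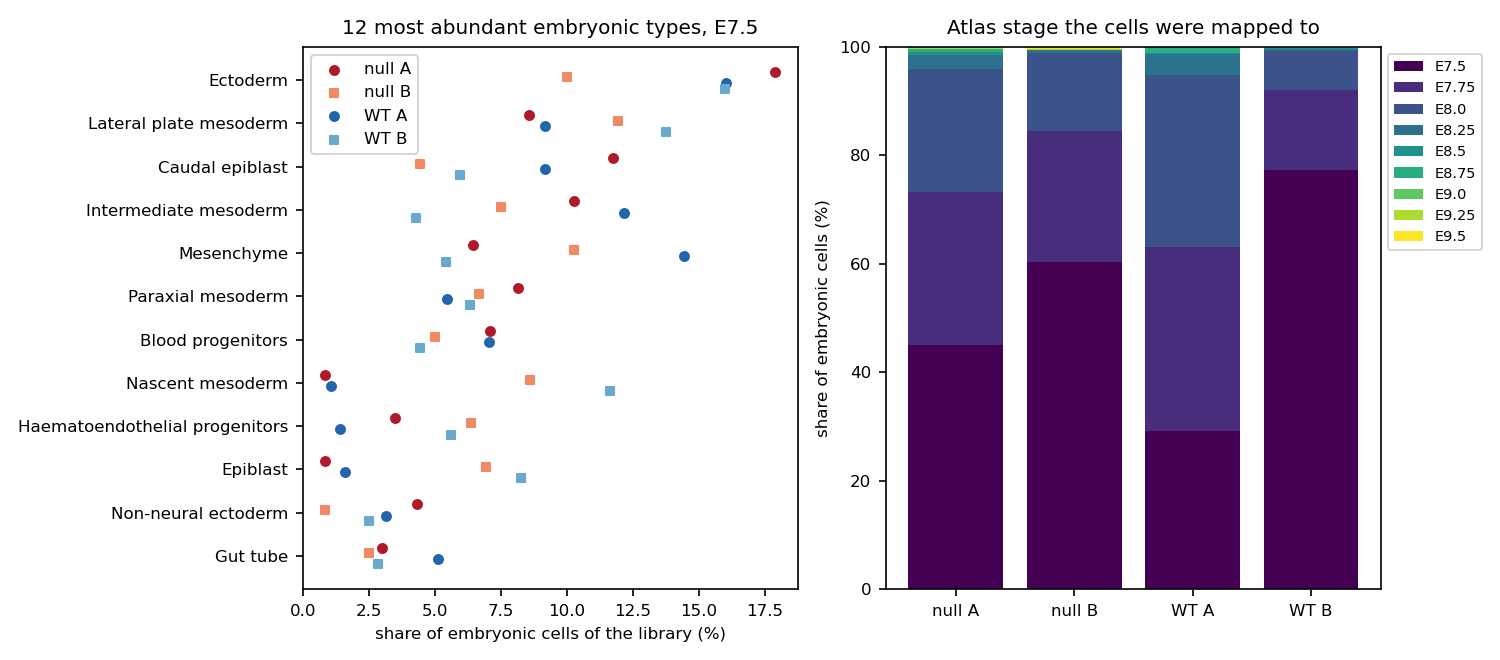
Share of embryonic cells (percent) of each E7.5 library in the 12 most abundant types (1 point per library) and, as stacked bars, by the atlas stage to which cells were mapped. Null A and WT A hold fewer cells mapped to atlas E7.5 (45.0% and 29.2%) than null B and WT B (60.3% and 77.3%).

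The developmental age of the cells was read from the stage of the reference atlas to which the authors mapped them. Averaged with equal weight over the 7 types, null cells mapped to day 7.68 ± 0.00666 (SD, n = 2) and WT cells to day 7.67 ± 0.103. The difference of 0.00578 days gave p = 1 in an exact two-sided permutation test, in which 2 against 2 libraries cannot go below 0.333. By library, 45.0% (null A), 60.3% (null B), 29.2% (WT A) and 77.3% (WT B) of embryonic cells mapped to atlas E7.5. Both null libraries lay between the WT libraries. By type the difference was greatest in Ectoderm and Paraxial mesoderm, where null minus WT came to -0.0603 and 0.0593 days. In Paraxial mesoderm (7.60 and 7.68 against 7.59 and 7.57) and in Blood progenitors (7.70 and 7.74 against 7.68 and 7.68, a difference of 0.0375 days) the libraries did not overlap, and in Ectoderm they did (7.66 and 7.54 against 7.79 and 7.53).

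*Stat3* itself (chr11:100885098-100939540, minus strand, GRCm38) was lower in null cells. Summed over embryonic cells it reached 1.53 and 1.16 CPM in null A and B and 7.43 and 6.12 CPM in WT A and B. Each null library was below each WT library (edgeR log2 fold change -2.24, SE 0.24, adjusted p = 0.0307). This call in the sum was lost when any of the 4 libraries was left out (adjusted p = 0.0667 to 0.165, edgeR), while the log2 fold change stayed between -2.47 and -2.11. Among the 7 types the WT level was by far the highest in Blood progenitors, at 30.4 and 31.1 CPM, against 3.50 and 5.71 CPM in null A and B (log2 fold change -2.93, adjusted p = 1.08e-05). In the other types WT cells held between 1.68 and 6.61 CPM. Null lay below WT in all 7, with a call in Mesenchyme (0.683 and 0.491 against 6.61 and 5.92 CPM, adjusted p = 0.0253) and none in Lateral plate mesoderm (2.03 and 0.829 against 6.31 and 5.50 CPM, adjusted p = 0.352), while the other 4 types had too few counts to be tested. The libraries count 3′ ends, and where reads fall relative to the replaced exons was not examined. The residual level is therefore no measure of intact *Stat3* transcript.

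**Figure D2:**
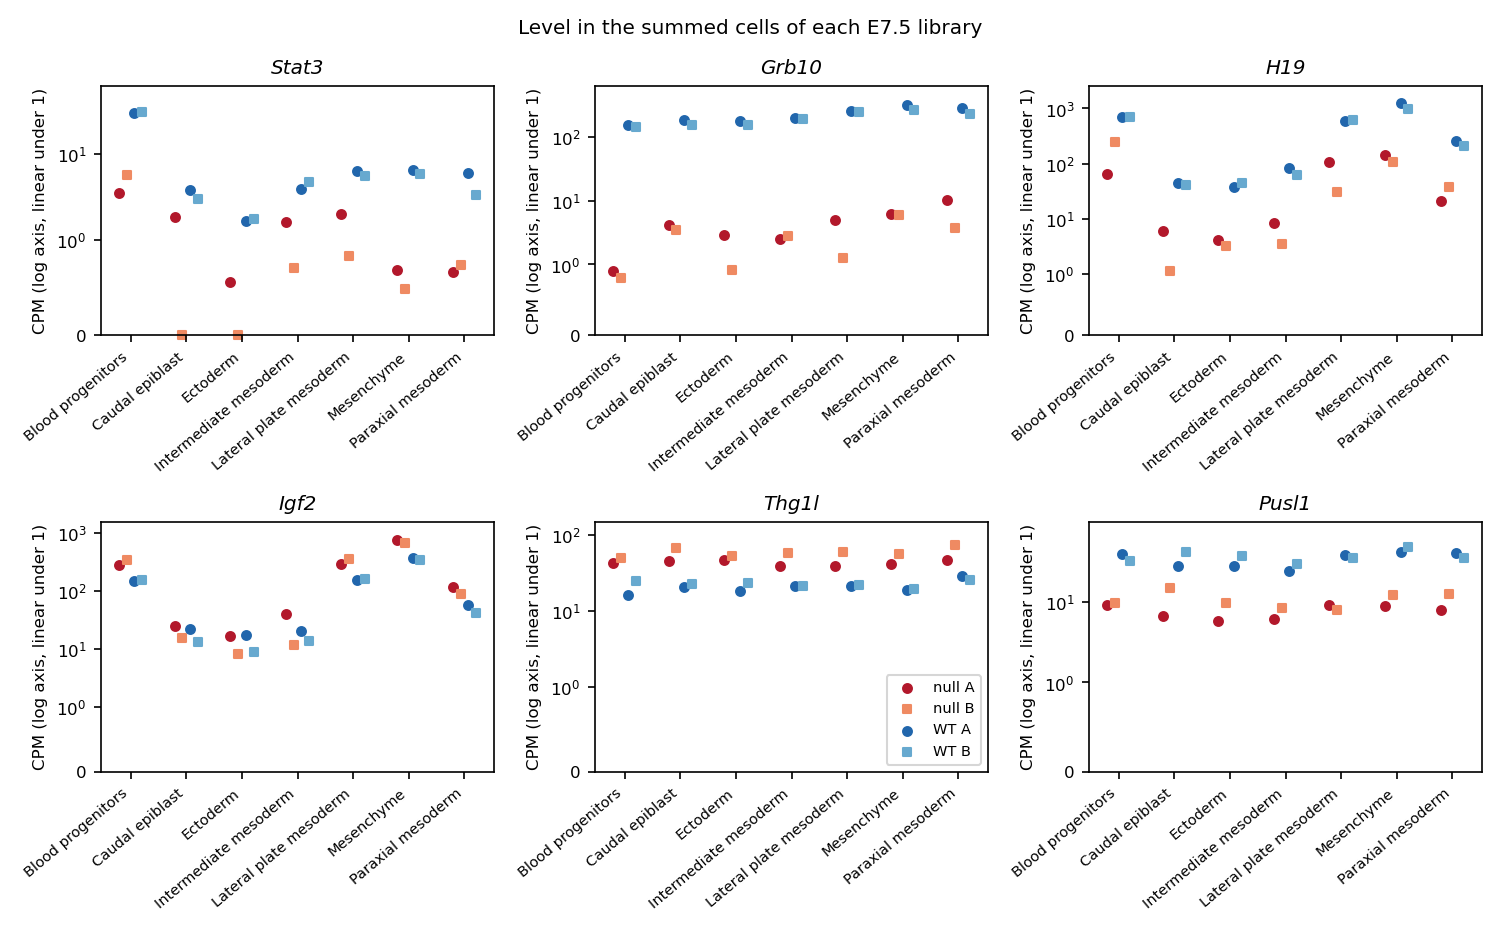
Level of 6 genes (CPM, log axis that is linear under 1) in the summed cells of each of the 7 types, with 1 point per library. Null libraries sit below WT libraries for *Stat3*, *Grb10*, *H19* and *Pusl1* in every type and above them for *Thg1l*. *Igf2* separates in 4 types.

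The second question was which genes differed within a type. The counts of each type were summed per library and fitted with edgeR, and calls required p under 0.05 after Benjamini-Hochberg adjustment within the type and a log2 fold change beyond 1 in either direction. In Blood progenitors 28 genes were called, 12 higher and 16 lower in null cells (0.341% of 8204 tested). Caudal epiblast had 9 higher and 8 lower (0.184%), Ectoderm 5 and 13 (0.17%), Intermediate mesoderm 7 and 9 (0.178%) and Lateral plate mesoderm 5 and 8 (0.13%). Mesenchyme had 6 higher and 8 lower (0.152%), and Paraxial mesoderm 8 and 7 (0.168%). The sum of all embryonic cells gave 4 higher and 7 lower (0.0825% of 13337 tested). The 7 types thus gave 121 calls, 52 higher and 69 lower, against 87 by DESeq2, of which 80 were shared. The total was 290 without WT A. In the sum it was 2 without null A and 2 without WT B, and 18 without WT A.

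These calls fell on few genes. The 121 calls concerned 56 genes, of which 32 were called in 1 type, 8 in 2 types and 16 in 3 or more, and those 16 made up 73 of the calls. No gene was called in opposite directions in different types. The 7 types come from the same 4 libraries, so a gene called in several of them has been measured in the same embryos each time and not in independent ones. With *Trim5*, which was called in the sum alone, 57 genes were called.

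**Figure D3:**
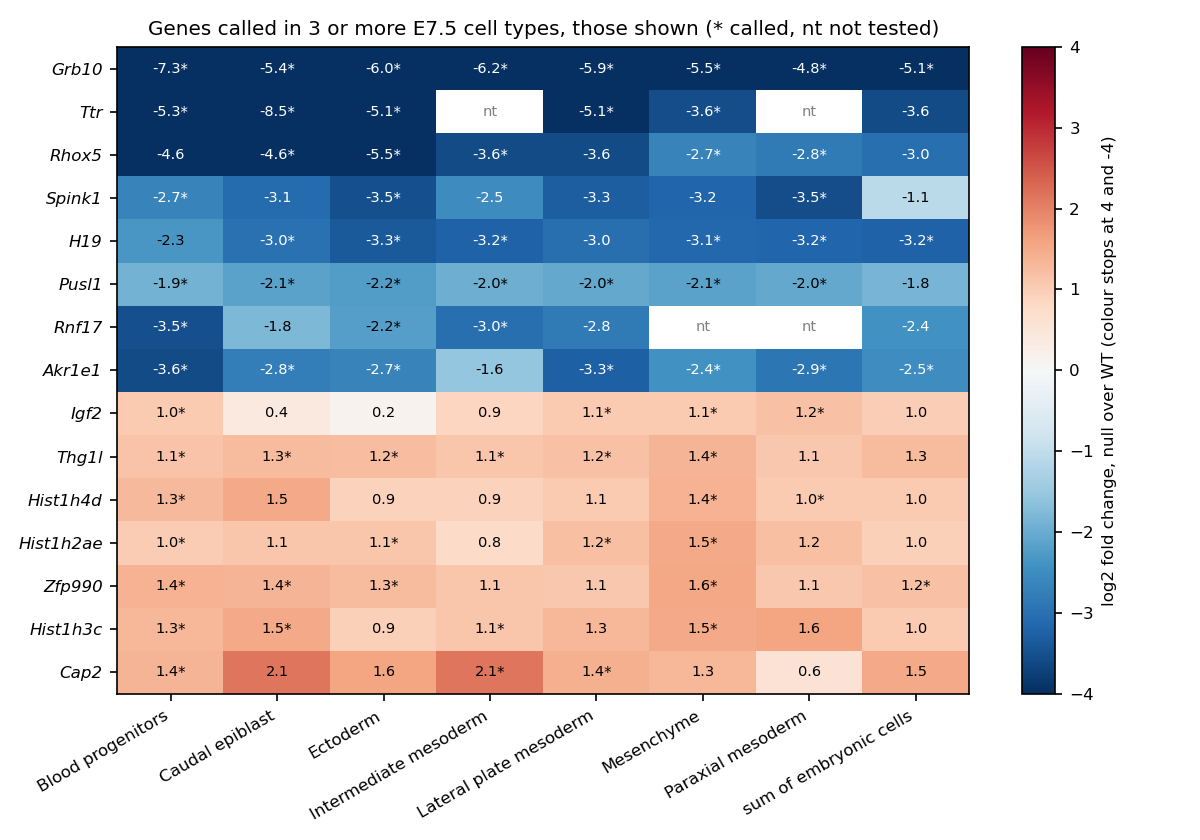
Log2 fold change, null over WT, of 15 of the 16 genes called in 3 or more E7.5 cell types, in each type and in the sum of embryonic cells (colour and printed value, star for a call, nt for not tested). Of those shown, 8 are lower and 7 higher in null cells, and *Grb10* and *Pusl1* are called in all 7 types.

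*Grb10*, an imprinted gene whose product binds insulin and IGF receptors and restrains growth, fell in every type. In the sum it was read at 7.18 and 4.88 CPM in null A and B and at 240 and 199 CPM in WT A and B. The groups were far apart, the fitted log2 fold change being -5.09 (SE 0.19, edgeR, adjusted p = 0.000833). It was called lower in all 7 types, by -7.26 in Blood progenitors (0.908 and 0.816 against 154 and 140 CPM) to -4.84 in Paraxial mesoderm (10.1 and 3.68 against 282 and 232 CPM). WT levels lay between 140 and 313 CPM in the 7 types, and no null library exceeded 10.1 CPM in any type. *Grb10* lies at chr11:11930508-12038683, on the same chromosome as *Stat3* but far from it.

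*H19* and *Igf2* are neighbours on chromosome 7 and are imprinted in opposite senses. *H19* gives a noncoding RNA from the maternal chromosome and *Igf2* a growth factor from the paternal one. *H19* was at 40.9 and 37.0 CPM in null A and B and at 451 and 306 CPM in WT A and B, or -3.23 on the log2 scale (SE 0.19, edgeR, adjusted p = 0.0096) with no overlap. That call was lost without null A (adjusted p = 0.217) and without null B (adjusted p = 0.204). It lay below WT in both null libraries in all 7 types and was called in 5. In Mesenchyme, where it was highest, it fell from 1278 and 997 CPM in WT to 142 and 107 CPM in null cells. The exceptions were Blood progenitors, where null A and B stood apart from each other at 65.1 and 250 CPM against 691 and 688 in WT (adjusted p = 0.997), and Lateral plate mesoderm (106 and 31.1 against 593 and 629 CPM, adjusted p = 1).

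*Igf2* moved the other way, and where it was expressed strongly. In Mesenchyme it was at 769 and 684 CPM in null A and B and 371 and 351 CPM in WT A and B (log2 fold change 1.05, SE 0.11, adjusted p = 6.48e-05). It was also called higher in Lateral plate mesoderm (302 and 363 against 158 and 166 CPM), in Blood progenitors (288 and 346 against 152 and 160 CPM) and in Paraxial mesoderm (120 and 91.2 against 59.0 and 41.7 CPM). The libraries did not overlap in these 4 types. In Ectoderm (16.7 and 8.36 against 17.4 and 9.10 CPM), Caudal epiblast and Intermediate mesoderm they overlapped and no change was called. In the sum the log2 fold change of 0.98 (SE 0.18) did not pass the test (adjusted p = 0.28).

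Of 58 imprinted genes tested in the sum, of 69 listed, 0 were called higher and 2 lower (*Grb10* and *H19*), beside 0.0825% called over all genes. Their median log2 fold change was -0.08, beside -0.0045 for all genes. *Peg3*, which acts in growth control, was at 655 and 639 CPM in null A and B and 763 and 649 CPM in WT A and B, and *Meg3*, a maternally expressed noncoding RNA, at 408 and 340 against 585 and 406 CPM. Null and WT ranges overlapped for both. In single types 37 to 48 imprinted genes were tested, and besides *Grb10*, *H19* and *Igf2* 3 were called, each in 1 type and each higher in null cells (0.341%, 0.178% and 0.168% of all genes were called in the 3 types concerned). They were *Zdbf2* in Blood progenitors (52.5 and 50.6 against 22.3 and 25.3 CPM, log2 fold change 1.15), *Slc38a4*, an amino acid transporter, in Intermediate mesoderm (122 and 145 against 62.3 and 59.8 CPM, 1.14) and *Impact*, a translational regulator, in Paraxial mesoderm (41.5 and 46.3 against 22.7 and 18.5 CPM, 1.13).

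Among the other genes lower in null cells, *Pusl1*, related to pseudouridine synthases, was called in all 7 types with log2 fold changes of -2.25 to -1.89. In Lateral plate mesoderm it was at 9.11 and 7.87 CPM in null A and B and 37.9 and 35.7 CPM in WT A and B. The sum gave 7.17 and 11.7 against 33.1 and 35.2 CPM, without overlap but short of the threshold (log2 fold change -1.85, SE 0.25, adjusted p = 0.113). *Akr1e1*, an aldo-keto reductase, was called in 6 types and in the sum, at 1.53 and 2.22 CPM in null A and B and 10.4 and 10.6 CPM in WT A and B, though the call in the sum was lost without null A (adjusted p = 0.0846) and without WT B (adjusted p = 0.0676). It has close paralogues, as has *Akr1b8*, which was called lower in Caudal epiblast and Ectoderm, so how reads were divided among them is uncertain. *Rnf17*, a germline gene, was called lower in 3 of the 5 types in which it could be tested.

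Some genes were almost unread in null cells. *Nr1h5*, a nuclear receptor gene, gave 0 UMIs in null and 88 in WT Ectoderm, at least 50.8-fold lower when the null group is set to the limit of 3 counts that a count of 0 allows over the group. In Caudal epiblast it gave 0 and 46 UMIs, at least 38.0-fold lower. The sum had 0.166 and 0.242 CPM in null A and B and 3.95 and 4.29 CPM in WT A and B. *Trim5*, which belongs to a multigene family, reached 0.0333 and 0.0483 CPM in null A and B and 1.81 and 2.34 CPM in WT A and B (log2 fold change -5.72, SE 0.51, edgeR adjusted p = 0.0195). Neither gene's libraries overlapped, and both lost their call in the sum without null A (adjusted p = 0.0846 for *Nr1h5* and 0.165 for *Trim5*) and without WT B (0.0552 and 0.0676).

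*Fam196b* showed the opposite pattern. The sum held 322 UMIs in null and 3 in WT cells, or 2.62 and 4.16 CPM in null A and B and 0 and 0.0651 CPM in WT A and B, a ratio of 65 with a 95% counting interval of 22 to 317. In Caudal epiblast the counts were 63 and 0, at least 8.48-fold higher in null cells, and in Ectoderm 58 and 1, a ratio of 33.5 (5.78 to 1346). It was thus read in both null libraries and almost nowhere in WT. Its call in the sum was lost without null A (adjusted p = 0.0695) and without WT B (0.0676).

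*Thg1l*, which adds a guanosine to histidine transfer RNA, rose in 6 types by 1.10 to 1.37 on the log2 scale. In Mesenchyme it was at 42.5 and 56.0 CPM in null A and B and 18.9 and 19.5 CPM in WT A and B. Paraxial mesoderm did not pass (47.2 and 73.5 against 28.8 and 25.9 CPM, adjusted p = 0.0872), though the libraries did not overlap there either. *Cap2*, an actin regulator of muscle, was called higher in Blood progenitors, Intermediate mesoderm and Lateral plate mesoderm, with 12.8 and 14.9 against 4.36 and 1.57 CPM in Intermediate mesoderm.

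Genes of the zinc finger cluster of chromosome 4 were higher in null cells in part. *Zfp990* was at 34.4 CPM in both null libraries and at 15.4 and 15.7 CPM in WT A and B (log2 fold change 1.19, SE 0.11, edgeR adjusted p = 0.0199), and it was called in 4 types. *Zfp984* was at 14.8 and 14.2 CPM in null A and B and 6.0 and 5.62 CPM in WT A and B (1.36, SE 0.14, adjusted p = 0.0288). Of 13 members tested in the sum, of 17 listed, these 2 were called, none lower, beside 0.0825% called over all genes, and the median log2 fold change was 0.72. *Zfp984* lost its call without any of the 4 libraries (edgeR adjusted p = 0.0667 to 0.165), and *Zfp990* without null A, WT A or WT B (0.0771 to 0.0846). The cluster did not move as a block. *Zfp992*, at 26.5 and 27.3 against 24 and 27.2 CPM, overlapped between groups, and *Zfp993* lay lower in null cells (1.63 and 2.03 against 4.48 and 5.46 CPM, adjusted p = 0.167). These genes are near copies of each other and their counts may be split among them.

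The clustered histone genes, whose RNA is made in S phase and mostly lacks a poly(A) tail, were called in part as well. *Hist1h2ae* was higher in Mesenchyme (256 and 194 CPM in null A and B against 86.0 and 77.8 CPM in WT A and B, log2 fold change 1.51) and in 3 other types. *Hist1h3c* was called in 4 types and *Hist1h4d* in 3, also higher. *Hist1h4i* was called lower in Intermediate mesoderm (15.8 and 12.1 against 32.3 and 32.5 CPM, -1.10). Of 17 histone genes tested 3 were called in Blood progenitors and 3 in Mesenchyme, beside 0.341% and 0.152% of all genes. In each other type 1 of 18 tested was called higher, beside 0.13% to 0.184% of all genes. In the sum 0 of 19 tested passed, beside 0.0825% over all genes, with a median of 0.09. Histone genes of a class are close in sequence. Of 42 other S phase genes 0 passed in the sum, beside 0.0825% over all genes, 37 had a log2 fold change above 0, and their median was 0.06. In the 7 types 23 to 36 of the 42 lay above 0, with medians of 0.04 to 0.12. The part of the cell cycle in the histone values was not tested.

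Several genes lower in null cells are markers of extra-embryonic tissue. *Ttr*, a secreted product of visceral endoderm, was at 1.02 and 0.483 CPM in null A and B and at 5.86 and 14.1 CPM in WT A and B. It was called lower in all 5 types in which it could be tested, in Caudal epiblast with 0 against 53 UMIs, at least 43.7-fold lower. *Rhox5*, a homeobox gene of extra-embryonic ectoderm, was called lower in 5 types (0.251 and 0.464 against 8.38 and 17.0 CPM in Ectoderm). *Spink1*, a protease inhibitor of endoderm, was called in 3 (2.64 and 1.86 against 19 and 36.7 CPM in Ectoderm), *Apoa1* in 2 and *Apom* in 1.

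*Ttr* was read at like levels in all types of a library. In WT B it lay between 11 and 15.5 CPM in all 7 types, and in WT A between 3.79 and 7.05. Other endoderm markers stood alike in the sum, with *Apob* at 0.177 and 0 CPM in null A and B and 0.809 and 2.58 CPM in WT A and B, and *Afp* at 0.0443 and 0.0483 against 0.714 and 1.13 CPM. The 26 listed markers of visceral and extra-embryonic endoderm summed to 513 and 595 CPM in null A and B and 815 and 737 CPM in WT A and B, with 2, 9, 3 and 0 of them at 0. In Ectoderm 4 of 13 tested were called, all lower, beside 0.17% of all genes. In the other types 7 to 11 were tested and 0 to 2 called, beside 0.13% to 0.341% of all genes. Of 20 tested in the sum 0 were called, beside 0.0825% over all genes, 2 had a log2 fold change above 0 and the median was -1.01. The 24 markers of extra-embryonic ectoderm summed to 1154 and 1535 against 1499 and 1533 CPM, and these ranges overlapped. Of 21 tested in the sum 0 were called, beside 0.0825% over all genes, 6 had a log2 fold change above 0 and the median was -0.17. *Elf5*, which defines that tissue, reached 0.0998 and 0.0483 against 0.809 and 1.60 CPM. Extra-embryonic cells were 0.184% and 0% of null and 21.4% and 15.1% of WT libraries, and the part of their free RNA in these differences was not tested.

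**Figure D4:**
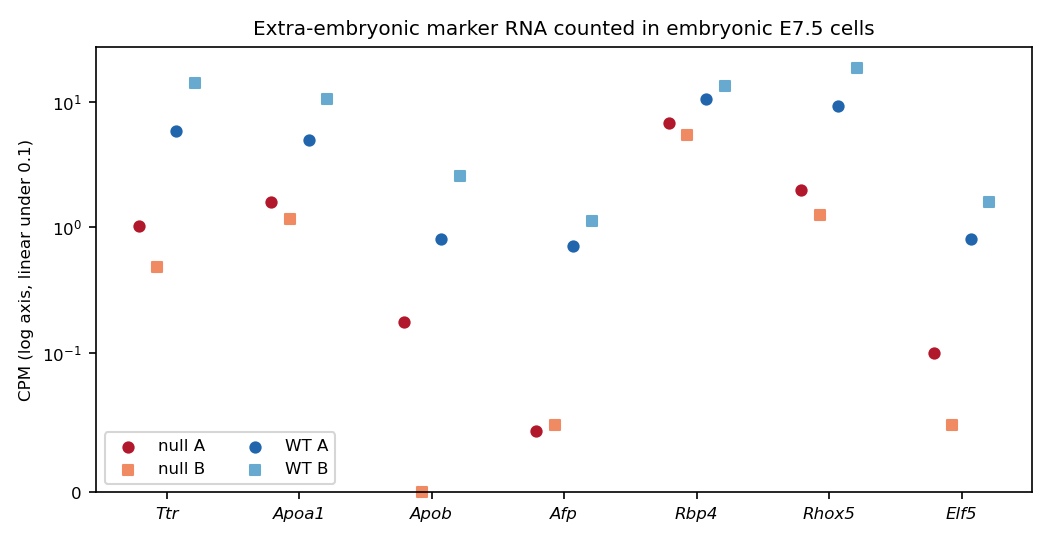
Level of 7 extra-embryonic marker genes (CPM, log axis that is linear under 0.1) summed over the embryonic cells of each E7.5 library, with 1 point per library. The 7 genes are a selection of such markers. Both WT libraries lie above both null libraries for each gene shown, for example *Ttr* at 5.86 and 14.1 CPM against 1.02 and 0.483 CPM. Of 21 listed extra-embryonic ectoderm markers tested in the sum, 6 had a log2 fold change above 0.

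Blood progenitors had the most calls and the most that were seen in no other type. At an unadjusted edgeR p under 0.05 they had 425 genes, beside 225 to 446 in the other types. WT *Stat3* was also highest in Blood progenitors, and whether calls go with its level was not tested. Null Blood progenitors mapped 0.0375 days later than WT ones, and the part of this in the calls was not tested. *Stat5a*, the STAT that mediates signals of the erythropoietin receptor together with *Stat5b*, was at 1.04 and 0 CPM in null A and B and 19 and 15.1 CPM in WT A and B (edgeR log2 fold change -4.17, SE 0.49, adjusted p = 7.37e-05). These levels rest on 8 and 0 against 35 and 37 UMIs, and null B held only 18 Blood progenitors. *Stat5b* was at 10.1 and 14.7 CPM in null A and B and 35.3 and 33.1 CPM in WT A and B (-1.58, SE 0.24, adjusted p = 0.00127). No null library reached the WT range for either gene. In the sum both lay below WT in both null libraries without a call (*Stat5a* 0.521 and 0.145 against 3.0 and 1.54 CPM, adjusted p = 0.45, and *Stat5b* 3.38 and 3.82 against 7.86 and 5.83 CPM, adjusted p = 0.527).

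*Stat5a* and *Stat5b* lie next to *Stat3* on chromosome 11, and the annotated ends of *Stat5a* (100859351 to 100885169, plus strand) and *Stat3* (100885098 to 100939540, minus strand) overlap. *Ptrf*, a caveolar coat gene that is also listed among the neighbours of *Stat3*, gave 3 UMIs in null and 47 in WT Blood progenitors, a ratio of 32.7 (10.5 to 164). Of 17 neighbours tested there these 3 were called, all lower, where 0.341% of all genes tested were called, and the median log2 fold change of the 17 was -0.04. In the sum 0 of 24 were called, with a median of -0.02. The null allele carries a selection cassette at this locus, and an effect of the allele on its neighbours and an effect of losing STAT3 cannot be told apart here.

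Other genes lower in null Blood progenitors were *Clic6*, a chloride channel gene (1.17 and 0.816 CPM in null A and B against 26.6 and 23.7 CPM in WT A and B, log2 fold change -4.41), *Bcl11b*, a zinc finger factor of lymphocytes (0.648 and 0 against 7.07 and 15.1 CPM, -4.24), and *Cd59a*, an inhibitor of complement (27.6 and 36.7 against 117 and 101 CPM, -1.82). The *Bcl11b* levels rest on 5 and 0 UMIs in null A and B and 13 and 37 in WT A and B. *Cd59a* was called lower in Lateral plate mesoderm too. Higher in null Blood progenitors were *Ccnb1ip1* (57.1 and 74.2 against 29.4 and 20 CPM), *Zfp985* (18.9 and 20.4 against 3.26 and 5.31 CPM, log2 fold change 2.16) and *Zfp984*. Of 26 haemangioblast and blood genes tested in this type 0 were called, beside 0.341% over all genes, 9 had a log2 fold change above 0 and the median was -0.16. The sum gave 0 calls among 31, beside 0.0825% over all genes, with 20 above 0 and a median of 0.10. In the sum *Etv2*, which starts the endothelial and blood programme, was at 63.2 and 58.9 CPM in null A and B and 40 and 48.9 CPM in WT A and B (edgeR adjusted p = 0.632), and *Lmo2* at 63.3 and 63.1 against 60.9 and 46.1 CPM.

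In Paraxial mesoderm, the source of the somites, *Cdx4*, a caudal homeobox gene on the X chromosome, was at 16.6 and 21.3 CPM in null A and B and 1.51 and 4.04 CPM in WT A and B (log2 fold change 2.48, SE 0.38, edgeR adjusted p = 0.00694). *Hoxb1*, chosen here after its values were seen, was at 165 and 180 against 86.3 and 75.7 CPM (1.12). *Myl7*, the atrial myosin light chain of early heart cells and likewise chosen after its values were seen, was lower, at 86.0 and 84.5 against 169 and 222 CPM (-1.19). The null and WT libraries did not overlap in any of the 3. Null cells of this type also mapped to later atlas stages than WT cells, by 0.0593 days, and the part of this in the *Cdx4* and *Hoxb1* values was not tested.

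In the remaining mesoderm, *Alpl*, the tissue-nonspecific alkaline phosphatase, was lower in null cells of Intermediate mesoderm (2.88 and 2.13 CPM in null A and B against 33.1 and 15.7 CPM in WT A and B, log2 fold change -3.14) and of Lateral plate mesoderm (2.91 and 2.07 against 27.7 and 14.6 CPM, -2.87). *Rprm*, a gene that halts the cell cycle downstream of p53, was lower in Lateral plate mesoderm (0.380 and 0.829 against 13.6 and 8.64 CPM, -4.33). *Cst3*, the protease inhibitor cystatin C, was higher in null cells, at 1085 and 993 CPM in null A and B and 480 and 422 CPM in WT A and B of Lateral plate mesoderm (log2 fold change 1.23, SE 0.11, edgeR adjusted p = 7.99e-06). *Hspa12b*, a heat shock protein gene of endothelium, was lower in Intermediate mesoderm, with 0.922 and 0.711 against 10.5 and 7.86 CPM. In Caudal epiblast *Alox15*, a lipoxygenase, was higher in null cells (18.2 and 20.6 against 5.97 and 3.72 CPM, 2.0), as were *B4galt6*, *Zfp979* and *Olfr655*.

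Of 33 listed STAT3 target genes 31 were tested in the sum and 0 were called, beside 0.0825% over all genes. At that share a list of this size holds about 0 calls. Of the 31, 21 had a log2 fold change above 0, with a median of 0.12 beside -0.0045 for all genes. *Socs3*, whose promoter window is printed above, was at 3.19 and 3.09 CPM in null A and B and 4.62 and 3.38 CPM in WT A and B. *Cish* was at 1.21 and 1.45 against 1.57 and 1.26 CPM. Both were low in all 4 libraries and *Cish* overlapped between groups, while *Socs3* lay slightly below WT in both null libraries without a call. *Pim1*, a kinase gene, was at 66.1 and 48.1 against 55.5 and 33.9 CPM, *Mcl1*, a survival factor, at 157 and 154 against 146 and 153 CPM, and *Birc5* at 324 and 344 against 326 and 320 CPM. In the 7 single types, 20 to 26 targets were tested and 0 were called in any of them, beside 0.13% to 0.341% of all genes.

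Of 18 receptor, kinase and regulator genes upstream of STAT3 tested in the sum 0 were called, beside 0.0825% over all genes, and the median was -0.08. *Il6st* was at 19 and 19.4 CPM in null A and B and 28.6 and 20.1 CPM in WT A and B, *Lifr*, the LIF receptor, at 16.3 and 18.9 against 21.4 and 19 CPM, and *Jak1* at 46.2 and 43.1 against 44.8 and 43.5 CPM. *Il6st* and *Lifr* lay just below WT in both null libraries (log2 fold change -0.29, SE 0.17, and -0.17, SE 0.13, edgeR adjusted p = 1 for both). Of the 7 STAT genes *Stat3* alone was called in the sum. *Stat6* was at 7.58 and 7.78 against 7.76 and 9.89 CPM, and its ranges overlapped.

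The TTCNNNGAA motif was found in the promoter windows of 8 of 26 listed STAT3 targets that had a RefSeq window, *Socs3*, *Cish*, *Bcl6*, *Sgk1*, *Icam1*, *Ifitm3*, *Tnfrsf1a* and *Zfp36*, or 30.8%. Of the 57 called genes 42 had a window, and 2 held the motif (*Thg1l* and *Zdbf2*, 4.76%). Counted per gene, 9.55% of 27025 genes held it. For the narrower TTCCNGGAA the shares were 11.5% of the listed targets (3 genes), 4.76% of the called genes (2) and 1.35% of all genes.

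In the sum, where 0.0825% of all genes were called, the pluripotency and gastrulation lists had 0 calls. At that share lists of this size hold about 0 calls. In single types 1 was called, *Cdx4* in Paraxial mesoderm (22 streak and nascent mesoderm genes tested, 0.168% of all genes called). Of 15 naive pluripotency genes tested in the sum 0 were called, with a median of 0.09. *Klf4*, a target of LIF signalling in ESCs, was at 6.72 and 12.3 CPM in null A and B and 6.71 and 8.5 CPM in WT A and B, and *Nanog* at 6.79 and 13.5 against 5.67 and 11.6 CPM. Of 22 general and primed genes 0 were called, with a median of -0.09, and *Pou5f1* was at 260 and 336 against 197 and 404 CPM. Of 29 genes of the primitive streak and nascent mesoderm 0 were called, with a median of 0.01. *Mesp1*, which marks cells leaving the streak, was at 55.6 and 139 CPM in null A and B and 43.1 and 188 CPM in WT A and B. In each of these examples the null and WT ranges overlapped, and *Mesp1* and *Pou5f1* varied between libraries of a genotype as the share of early cell types did. A p that misses the threshold with 2 libraries a side does not show equal levels.

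Null effects at E7.5 were then compared with those at later stages, in libraries that share no embryo with E7.5. There too all null cells come from *Stat3* null ESC donors and all WT cells from the host. A like effect at several stages therefore cannot tell loss of *Stat3* from other traits of the donor line. The E8.5 fit rests on 2 null and 2 WT libraries and the E9.5 fit on 4 and 4 from 2 embryos, so E9.5 libraries are not all independent. Of the 57 genes 54 could be tested at each stage. At E8.5, where 0.0348% of all genes tested were called, 3 of them were called in the direction of E7.5 (*Cd59a*, *Fam196b* and *Hist1h4i*) and 0 in the other, and 43 had the same sign. At E9.5, where 0.607% of all genes were called, 11 were called in the same direction (*AC132623.2*, *Akr1b8*, *Akr1e1*, *Cwc22*, *Fam196b*, *Grb10*, *Hist1h4i*, *Pusl1*, *Rnf17*, *Stat3* and *Zdbf2*) and 0 in the other, and 45 had the same sign.

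*Grb10* stayed apart at E9.5, between 9.83 and 22.4 CPM in the 4 null libraries and 352 and 373 CPM in the 4 WT libraries (log2 fold change -4.73, SE 0.28). At E8.5 the 2 null libraries differed, at 12.5 and 264 CPM against 266 and 267 CPM in WT (-0.99, SE 1.63, adjusted p = 1). What sets these null libraries apart was not tested. *H19* split the same way at E8.5, at 11.7 and 245 CPM in null against 457 and 539 CPM in WT, and at E9.5 it lay at 13.3 to 113 CPM in null and 474 to 729 CPM in WT (-3.78, adjusted p = 0.0528). *Igf2* was higher in null cells at E9.5 by 0.84 (347 to 407 against 182 to 245 CPM, adjusted p = 0.00534), below the fold threshold. *Stat3* was at 1.40 and 2.51 against 7.59 and 7.70 CPM at E8.5, not called (adjusted p = 0.243), and fell at E9.5, with 2.04 to 2.44 against 6.12 to 7.07 CPM (adjusted p = 5.06e-05).

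The extra-embryonic marker genes differed among themselves at the later stages. *Ttr* was at 28.9 and 50.1 CPM in null and 15.8 and 23.3 CPM in WT libraries at E8.5 (log2 fold change 0.99), and at E9.5 the ranges of 1.45 to 10.7 and 2.19 to 6.76 CPM overlapped (0.06). *Rhox5* stayed below WT in both null libraries at E8.5 (3.80 and 4.34 against 5.72 and 6.10 CPM, log2 fold change -0.55, adjusted p = 0.696), and at E9.5 its ranges of 1.83 to 3.62 and 1.20 to 10.9 CPM overlapped (-1.07). For none of *Ttr*, *Rhox5*, *Apoa1*, *Apom* and *Spink1* did the difference between a later effect and the E7.5 effect pass the edgeR interaction test (adjusted p = 0.215 or more). The estimates were large nonetheless. In the same order the E8.5 effect minus the E7.5 effect was 4.51, 2.45, 3.31, 4.76 and 1.77 on the log2 scale. With so few libraries a missed threshold does not show equal effects.

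**Figure D5:**
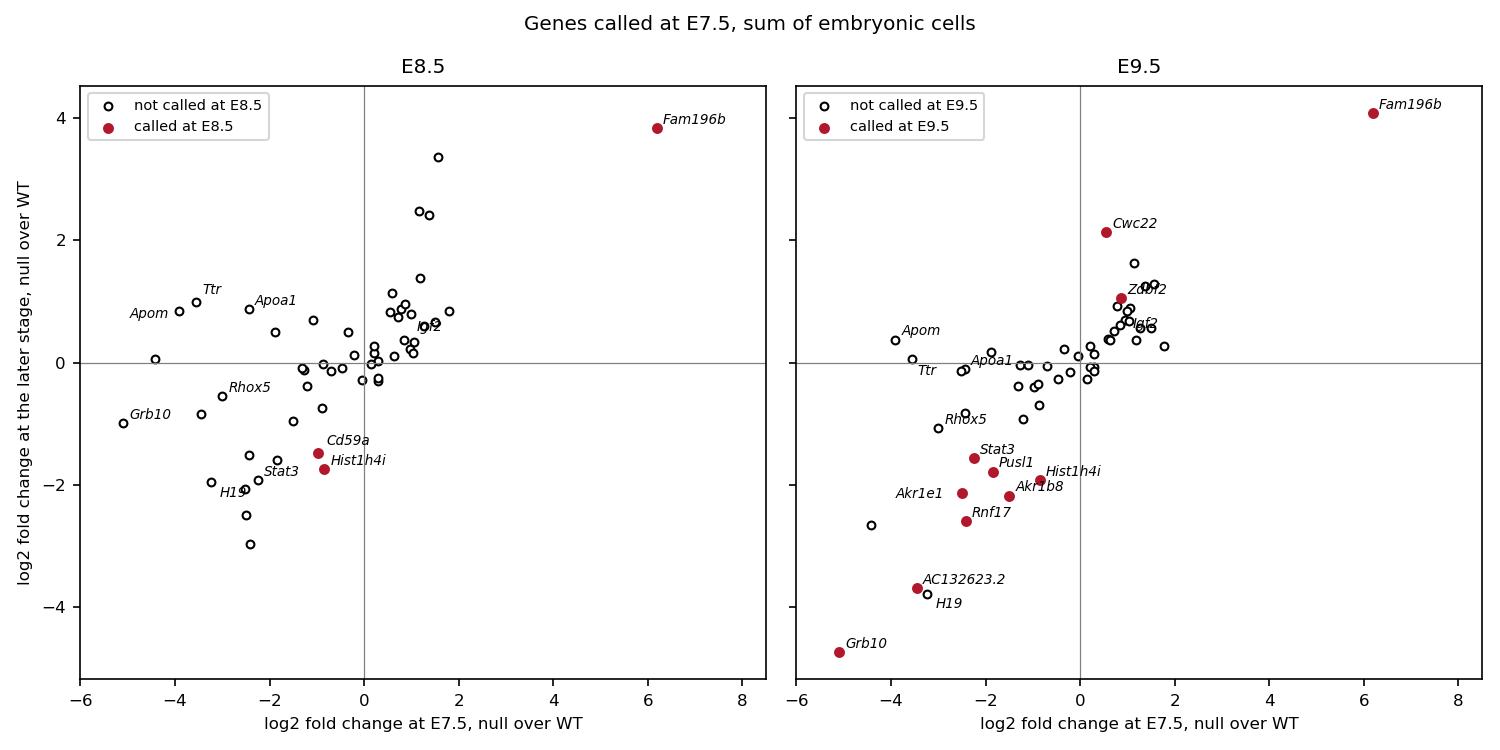
Log2 fold change, null over WT, in the sum of embryonic cells at E7.5 (x axis) against that at E8.5 and at E9.5 (y axis) for the 54 genes called at E7.5 that were tested at the later stage, in red where called there. *Fam196b* lies at the top right and *Grb10*, *H19* and *Stat3* at the bottom left at E9.5, while *Ttr*, *Apom* and *Apoa1* lie near or above 0 and *Rhox5* below 0 at both later stages.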

How the data were processed

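Chimeric embryos were sequenced as 16 libraries of 3′ single-cell RNA, 4 of them from E7.5. The authors mapped reads to mm10 with Cell Ranger, counted them with the GRCm38.p5 annotation plus tdTomato, and deposited raw UMI counts per gene and cell with no normalization. The authors' table gives stage, sort gate, quality filter, doublet call, transferred cell type, the mitochondrial percent per cell, and the score of each transferred type, which the authors deposited as a fraction between 0 and 1. The mitochondrial percent and the score entered no test. At E7.5 the matrix held 5547 cells. Left out were 479 doublet calls and 30 cells sorted as WT that held tdTomato UMIs, and 2 barcodes were shared between E7.5 libraries. Columns of per-sample values left unmatched numbered 0.

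Counts were summed per library over each type with more than 15 cells in each of the 4 E7.5 libraries (7 types) and over all embryonic types. They were filtered with filterByExpr, scaled by TMM and tested in R 4.3.3 by robust quasi-likelihood fits of edgeR 4.0.16, with Benjamini-Hochberg adjustment over all genes of the fit. limma 3.58.1 and DESeq2 1.42.0 served as alternatives. Of 29453 genes 8165 were not tested, as in the study (predicted and Rik genes, those of ribosomal proteins, haemoglobins, mitochondria or the Y chromosome, tdTomato, *Tsix* and *Xist*). The study left out imprinted genes as well, whereas they stayed in here. The procedure was tested on simulated data. A fold change gives null relative to WT on the log2 scale, and errors are SDs over libraries or SEs of the fit. Limits of a count of 0 (3 counts) and 95% intervals cover counting error only. Coordinates are GRCm38 (GENCODE vM21).

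Named genes were *Stat3*, in each fit the called genes with the 5 largest changes in each direction whose null and WT libraries did not overlap, genes called in 3 or more types, and from each list the called members or else up to 3 of the most abundant. Other genes given with values (*Hoxb1*, *Myl7*, *Cd59a*, *Cwc22*, *Lyrm7*, *Cish*, *Socs3*, *Klf4* and further list members) were chosen after their values were seen. The members and the lists were chosen with earlier results of these data known. The study fitted the embryo pool as a block. No block was fitted here, because library names match no sample title. The mean atlas stage as a covariate, and cells mapped to atlas E7.5 alone, were alternatives chosen after seeing the data. Results on a few genes that the rule names are not reported here.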

Additional observations from a re-analysis of the deposited data

Results flagged for a closer look

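*Cwc22* and *Lyrm7* were called at E7.5 in Blood progenitors alone. In the sum of embryonic cells at E7.5 neither was called (*Cwc22* log2 fold change 0.55, edgeR adjusted p = 0.68, and *Lyrm7* -2.51, adjusted p = 0.0837). Their null effects in the sum differed between E7.5 and E9.5. This was the interaction term of an edgeR fit over all 16 libraries, with Benjamini-Hochberg adjustment over all genes. *Cwc22*, a splicing factor gene, had a larger null effect at E9.5, where null libraries held 154 to 174 CPM and WT libraries 36.7 to 38.5 CPM, and the E9.5 effect minus the E7.5 effect was 1.572 on the log2 scale (adjusted p = 0.0019). *Lyrm7*, a gene of mitochondrial complex III assembly, was called lower in null Blood progenitors at E7.5 and lay at 0.977 to 1.15 against 1.02 to 1.28 CPM at E9.5, with a difference of effects of 2.367 (adjusted p = 0.0473). E9.5 libraries come from 2 embryos, and the mix of cell types in the sum differs between the stages. Groups of 2 libraries at E7.5 are too small to be screened for a library that stands apart.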

How the results depend on the processing

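No paired analysis was possible because the library names in the cell table match no sample title or embryo pool, so which null library shares a pool with which WT library is not known. Over the 7 types the 121 calls became 280 with no filter on low counts, 202 with the mean atlas stage as a covariate (chosen after seeing the data) and 45 in the 3 types with over 30 cells per library (Ectoderm, Lateral plate mesoderm and Mesenchyme), and leaving out each library in turn gave 136 to 290, the latter without WT A. The share of calls higher in null cells was 43.0% and reached 51.4% without WT A. In the sum the 11 calls became 46 with DESeq2, 53 with no filter, 19 with the atlas stage covariate, 21 with all 16 libraries in 1 fit, 39 with cell types scaled to equal shares, 7 without the blood lineage, and 2 to 18 with each library left out (2 without null A, 2 without WT B and 18 without WT A). With extra-embryonic types kept in the abundance fit, 3 types were called, and these were ExE ectoderm, ExE endoderm and Visceral endoderm themselves. The *Stat3* log2 fold change was -1.96 without the blood lineage (adjusted p = 0.169) and -2.23 in cells mapped to atlas E7.5 alone (adjusted p = 0.0571), and -2.47 to -2.11 with each library left out (adjusted p = 0.0667 to 0.165), all short of the threshold. Mapped stage differed by -0.0357 days with medians within types and by -0.0670 to 0.0786 days with each library left out. The causes were not tested. Of 119 values of single called genes, 0 changed sign under any alternative, and 31 kept their call in all of them. A lone library left in a group is assumed to vary like the other group. *Stat3* had too few counts to be tested in 4 of the 7 types.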

Other observations

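Groups of genes that the comparison did not turn on were also counted in the sum of embryonic cells, where 0.0825% of all genes were called. Of 102 oxidative phosphorylation genes tested 0 were called, 71 had a log2 fold change above 0 and the median was 0.06. Of 28 p53 targets 0 were called, 19 were above 0 and the median was 0.12, and of 51 G2/M genes 0 were called, with a median of 0.0025. Glycolysis and hypoxia genes (36 tested), BCL2 family genes (17), Myc family genes (11), interferon-type and MHC class I genes (26) and genes of BMP, Nodal, Wnt and FGF response (30) had 0 calls each, with medians of -0.06, 0.04, 0.07, -0.01 and 0.04. The same held for genes of DNA methylation and germline (20 tested, median -0.16), of primordial germ cells (11, -0.15), of definitive endoderm (14, -0.19), of neural and surface ectoderm (26, -0.05), of node and axial mesoderm (13, 0.01), of extra-embryonic and lateral mesoderm (24, -0.05), of the red cell (7, -0.06), of immediate early and dissociation response (24, 0.03) and of extra-embryonic ectoderm (21, -0.17). In single types, where 0.13% to 0.341% of all genes were called, some members of these lists were called lower. *Rhox5*, listed for germline, primordial germ cells and extra-embryonic ectoderm, was called in 5 types. *Spink1*, listed for definitive endoderm, was called in 3, and *Alpl*, listed for primordial germ cells, in 2.

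By chromosome, the 57 called genes had 10 members on chromosome 11 (17.5% of called against 8.06% of tested genes), which carries *Stat3*. These were *Stat3*, *Stat5a*, *Stat5b*, *Grb10*, *Lyrm7*, *Myl7*, *Thg1l*, *Fam196b*, *Hoxb1* and *Alox15*, of which 6 were lower and 4 higher in null cells. Chromosome 4 had 7 (12.3% against 6.51%) and chromosome 13, which holds the *Hist1* cluster, 6 (10.5% against 3.79%). *Ptrf* and *AC132623.2* matched no annotation entry and are counted on no chromosome, so *Ptrf*, listed among the neighbours of *Stat3*, is not among the 10. No test was made of these shares.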
